A study of Gallus gallus with 16 samples.

Results

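The genes described here are the coactivators YAP1 and WWTR1 (whose protein is TAZ), the DNA-binding factors TEAD1, TEAD3 and TEAD4 with which they act, and the target genes CYR61, CTGF, ANKRD1, AMOTL2 and AJUBA. They were listed by name and not by a rule on measured values, but with earlier results of these data known. The study had already listed CCN1, another name of CYR61, among its upregulated genes. Its causal network analysis predicted activation of YAP1 from CCN1, FOS and TK1, a prediction that was not tested here. Of the 10 names, 8 matched a gene of the 23910 in the count table. AJUBA was not analysed here, and CTGF matched no symbol. CTGF, now named CCN2, was found after the values were seen. The gene listed under the symbol NOV on chromosome 3 has the same 2 neighbouring genes, ENPP3 and MED23, as CCN2 in a RefSeq gene table of another chicken assembly. RefSeq gives NOV as a synonym of both CCN2 and CCN3, but CCN3 lies on chromosome 2 and shares 0 of the 2 neighbours. The gene listed as NOV is given as CCN2 beside the 8 genes and is not counted among them.

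COVCAR cells, chicken ovarian cancer cells grown from the ascites of laying hens, were treated for 24 h with metformin, a biguanide drug used against diabetes. Each of 4 primary lines (C5, C7, C9 and C11) was grown from 1 hen (Hy-Line W-36 Leghorns past their peak laying age) and gave 1 RNA library at 0 mM (control group), 0.5 mM, 1 mM and 2 mM, so that each dose had 4 libraries and the series 16. Lines C5, C7 and C9 were used at passage 3 and C11 at passage 2, and all 16 cultures, controls included, were in serum-free medium with insulin and epidermal growth factor in ultra-low attachment plates. The lines are primary cultures and not clones, no genetic alteration is stated for any of them, and the treatment is described as done in triplicate while 1 library stands for each line and dose. Total counts lay between 34724071 and 42531887 per library.

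YAP1 and WWTR1 carry no DNA-binding domain of their own. In the Hippo pathway the kinases STK3 and STK4, with SAV1, activate LATS1 and LATS2, which phosphorylate both coactivators and so keep them out of the nucleus. Unphosphorylated YAP1 and WWTR1 bind TEAD factors on enhancers and promoters and raise genes such as CYR61, CCN2, ANKRD1 and AMOTL2. Attachment, cell spreading, actin tension and energy stress are known inputs, and RNA levels show neither the phosphorylation nor the location of the proteins.

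The labels call the cells ovarian endometrioid adenocarcinoma cells. Of the 10 epithelial markers examined, 6 were in the table. KRT7, an epithelial keratin, lay between 205 and 860 CPM (counts relative to the TMM-normalized total of each library). EPCAM reached at most 0.645 CPM, PAX2 0.801 CPM and CDH1, the epithelial cadherin, 7.15 CPM, and the transcription factor ELF3 and the keratin KRT18 at most 10.4 and 28.4 CPM, with EPCAM and PAX2 at 0 in at least 1 library. COL1A1, a fibrillar collagen of fibroblasts, ranged from 1884 to 29613 CPM. EPCAM and PAX2 were thus at or near 0 in these cultures, while KRT7 was present in every library and COL1A1 was high.

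The libraries also differed in a way that dose does not describe. In each library the level of 10632 genes relative to their own means was set against exonic length, and the slope of this relation (the length slope) was above 0 in 7 libraries and below 0 in the other 9. Line C9 gave 4 of the 7, at every dose, and the rest were C7 at 0.5 mM, C11 at 0.5 mM and C5 at 2 mM. The first principal component held 41.9% of the variance and had the same sign as the length slope in every library. These 7 and 9 libraries are a split made from the data and not groups of the study, so no test was run between them, and the origin of the split was not tested.

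YAP1 (ENSGALG00000038154, GRCg6a chromosome 1, 183975461 to 184057285, minus strand) was highest in the 7 libraries of positive length slope. Values by line are given from here on in the order C5, C7, C9, C11. In the control group its levels were 37.1, 18.5, 115 and 28.8 CPM, and at 0.5 mM they were 18.0, 84.8, 113 and 105 CPM. At 1 mM the levels were 10.7, 24.6, 79.9 and 20.2 CPM, and at 2 mM they were 52.8, 18.4, 61.5 and 15.9 CPM. C9 was high at every dose, C7 and C11 were high only at 0.5 mM, and C5 only at 2 mM, so that every dose held both high and low libraries. The 7 libraries of positive slope lay between 52.8 and 115 CPM and the 9 others between 10.7 and 37.1 CPM, with no overlap.

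WWTR1 (ENSGALG00000010412, chromosome 9, 23950498 to 23990584, plus strand), the paralogue of YAP1, was lower and followed the same split. Its control levels by line were 11.5, 7.60, 19.5 and 10.97 CPM, against 8.08, 18.4, 21.3 and 16.3 CPM at 0.5 mM. At 1 mM it was 5.27, 8.27, 18.3 and 6.79 CPM, and at 2 mM 16.1, 6.71, 17.9 and 7.34 CPM. All 7 libraries of positive slope (16.1 to 21.3 CPM) were above all 9 others (5.27 to 11.5 CPM). Its exonic length of 1161 bases is the shortest of the genes described, against 2885 bases for YAP1.

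TEAD1 (ENSGALG00000005415, chromosome 5, 8004041 to 8091334, minus strand), one of the factors that place YAP1 on DNA, had the widest separation. Its levels by line were 5.45, 3.83, 42.0 and 3.07 CPM in the control group, where C9 stood apart. At 0.5 mM they were 6.05, 33.6, 32.8 and 39.3 CPM, and C5 was the low one. At 1 mM the levels were 5.46, 10.3, 31.6 and 6.28 CPM, and at 2 mM 35.3, 5.21, 28.5 and 4.86 CPM. The median of the 7 libraries of positive slope was 6.17 times that of the other 9, against 4.57 times for YAP1 and 2.40 times for WWTR1. Thus 3 of the 8 genes, both coactivators and TEAD1, had all 7 libraries above all 9. This held for 12.5% of 13591 genes with a mean of at least 10 counts, so the separation is shared with many other genes.

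Sums of macrophage and endothelial markers differed between the same libraries, with some overlap. The summed level of 10 macrophage markers was 16.4 to 36.7 CPM in the 7 libraries and 27.8 to 111 CPM in the 9, and that of 6 endothelial markers was 9.91 to 21.1 against 2.62 to 12.7 CPM. The sum of 8 fibroblast markers overlapped widely, from 9429.6 to 29627 CPM against 8169.8 to 67779 CPM. T cell markers (97.8 to 144 against 63.9 to 224 CPM) and smooth muscle markers (52.9 to 176 against 97.3 to 667 CPM) overlapped as well. So did mesothelial markers (56.6 to 268 against 36.4 to 162 CPM) and epithelial markers (315 to 809 against 226 to 880 CPM). Erythroid markers summed to at most 1.41 CPM in any library. Their part in the levels of YAP1, WWTR1 and TEAD1 was not tested. In RNA from whole cultures, fewer cells of a type and less RNA per cell cannot be told apart.

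**Figure D1:**
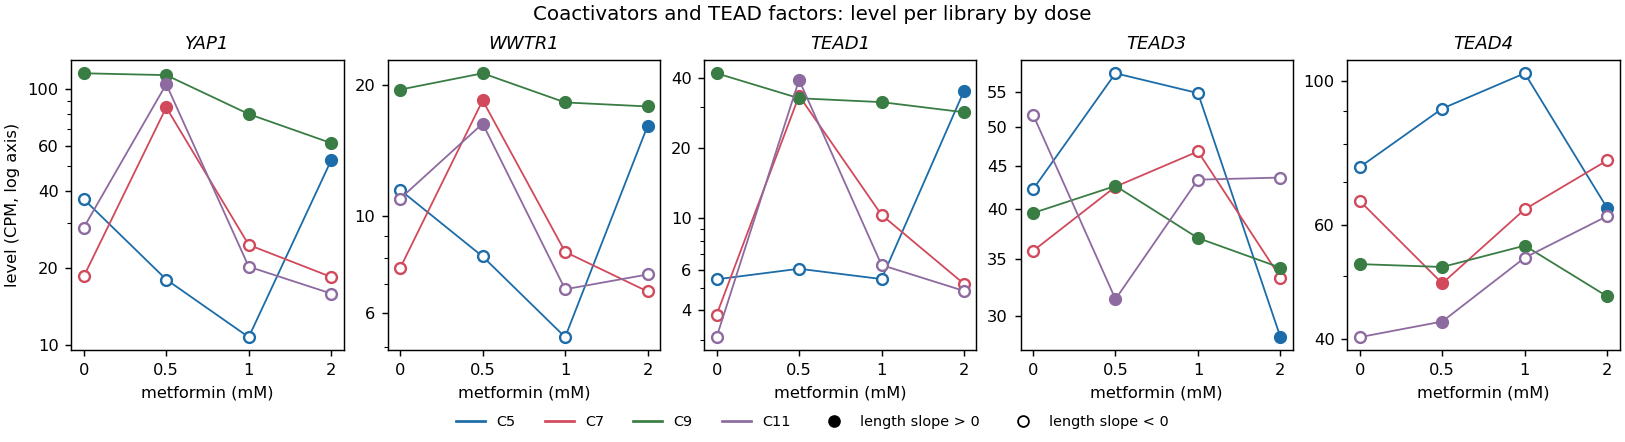
Level of the coactivators YAP1 and WWTR1 and of TEAD1, TEAD3 and TEAD4 in each of the 16 libraries (CPM, log axis) by metformin dose (mM, evenly spaced), with 1 line per cell line. Filled points are the 7 libraries of positive length slope and open points the 9 of negative slope, and the filled points of YAP1, WWTR1 and TEAD1 lie above all open ones, while those of TEAD3 and TEAD4 mix.

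TEAD4 and TEAD3 varied little by comparison. TEAD4 (ENSGALG00000014342, chromosome 1, 75219390 to 75286457, minus strand) ranged over 16 libraries from 40.3 to 103 CPM, a 2.56-fold range, and TEAD3 (ENSGALG00000043513, chromosome 26, 47040 to 65837, minus strand) from 28.3 to 57.8 CPM, a 2.04-fold range. The range was 13.7-fold for TEAD1 and 10.7-fold for YAP1. The control levels of TEAD4 by line were 73.7, 65.4, 52.2 and 40.3 CPM, and those at 2 mM were 63.7, 75.5, 46.5 and 61.9 CPM. The levels at the 2 doses overlapped, with C7 and C11 higher and C5 and C9 lower at 2 mM. TEAD3 was 42.2, 35.7, 39.6 and 51.7 CPM in the control group and 28.3, 33.3, 34.2 and 43.6 CPM at 2 mM. It was lower at 2 mM in all 4 lines, as were 18.5% of 13591 genes, although the levels of the 2 groups overlapped.

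To compare genes with each other, counts were divided by exonic length and scaled to the same total in every library (TPM). By median TPM over the 16 libraries the order was CCN2 (579), CYR61 (405), TEAD4 (63.5), AMOTL2 (53.8), TEAD3 (43.4), YAP1 (20.5), WWTR1 (17.4), TEAD1 (6.22) and ANKRD1 (4.27). The ranges of all neighbours in this order overlapped. YAP1, for example, spanned 5.64 to 87.8 TPM and WWTR1 6.88 to 39.2 TPM. Within libraries the order of the factors was steadier, with TEAD4 above TEAD3 and TEAD3 above TEAD1 in 15 of 16, the exception being C11 without metformin. YAP1 was above WWTR1 in 12 of 16 libraries, namely all 7 of positive length slope and 5 of the other 9.

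The makeup of the summed TEAD level followed the split. TEAD1 gave 20.3% to 28.6% of the summed TPM of TEAD1, TEAD3 and TEAD4 in the 7 libraries of positive slope and 2.47% to 6.58% in the 9 others. TEAD4 gave 42.2% to 54.9% and 44.2% to 68.3%, respectively. The summed TEAD level itself overlapped between them, from 119 to 150 TPM and from 79.3 to 141 TPM. Relative to the summed TPM of YAP1 and WWTR1, it was 1.14 to 2.05 times as high in the 7 libraries and 2.66 to 10.9 times as high in the 9. TEAD RNA thus exceeded coactivator RNA in every library. YAP1 and WWTR1 form the divisor of this ratio, so its lower values in the 7 libraries restate their higher coactivator levels.

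**Figure D2:**
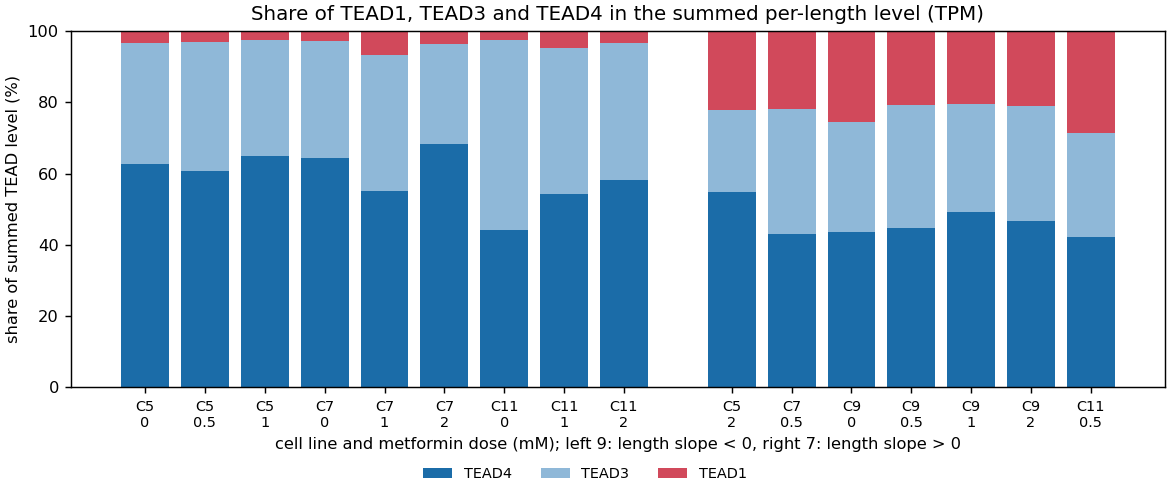
Share (%) of TEAD4, TEAD3 and TEAD1 in their summed TPM, 1 bar per library, labelled with the cell line and the metformin dose in mM. The 9 libraries of negative length slope stand on the left with a TEAD1 share of 2.47% to 6.58%, and the 7 of positive slope on the right with 20.3% to 28.6%.

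CYR61 (ENSGALG00000008661, chromosome 8, 16587842 to 16590293, minus strand), a secreted matricellular protein and a much used readout of YAP1 and TEAD, had higher levels in the 1 mM and 2 mM groups. In the control group its levels by line were 70.2, 116, 197 and 206 CPM. At 0.5 mM they were 600.3, 238, 213 and 70.2 CPM, so 3 lines were higher and C11 was lower. At 1 mM the levels were 715, 1741, 433 and 516 CPM, and at 2 mM 367, 456, 443 and 729 CPM. All 4 libraries at 1 mM and all 4 at 2 mM were above all 4 controls. Mean levels were 147 ± 65.2 CPM (SD, n = 4) in the control group, 851 ± 605 at 1 mM and 499 ± 158 at 2 mM, that is 5.78 and 3.39 times the control mean.

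AMOTL2 (ENSGALG00000054723, chromosome 9, 4625172 to 4641190, plus strand), a junction protein of the angiomotin family that binds YAP1 and restrains it, did the same at lower levels. Its levels by line were 27.9, 59.5, 52.4 and 52.8 CPM in the control group. At 1 mM it was 84.3, 326, 78.2 and 112 CPM, and at 2 mM 69.4, 91.5, 91.4 and 127 CPM. Neither dose overlapped with the control group. At 0.5 mM the levels were 90.0, 82.4, 56.5 and 25.7 CPM and C11 was again the only line that was lower. The means at 1 mM and 2 mM were 3.12 and 1.97 times the control mean.

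CYR61 and AMOTL2 were therefore 2 of 8 genes whose 4 libraries lay above all 4 controls, at both 1 mM and 2 mM. Of 13591 genes, 1.77% did so at 1 mM and 3.48% at 2 mM. None of the 8 lay wholly below the controls at either dose, as 1.29% and 3.71% of genes did.

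ANKRD1 (ENSGALG00000006491, chromosome 6, 20474784 to 20483465, minus strand), an ankyrin repeat protein of muscle and a target of YAP1, was low and uneven. Its control levels by line were 1.56, 3.20, 6.31 and 16.002 CPM. At 1 mM they were 1.82, 108, 8.24 and 24.1 CPM and at 2 mM 13.8, 3.61, 6.40 and 33.9 CPM. Each line was higher than its own control at both doses, as were 15.1% and 17.1% of 13591 genes, but the rise in C9 at 2 mM was only from 6.31 to 6.40 CPM. The groups overlapped, and the mean at 1 mM of 35.5 ± 49.1 CPM (SD, n = 4) was set by C7.

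CCN2 (ENSGALG00000037402, chromosome 3, 57245588 to 57248925, plus strand), a second secreted CCN protein and YAP1 target, was the most abundant of these genes. Its levels by line were 108, 590.2, 958 and 506 CPM in the control group. At 1 mM it was 1040.5, 2333, 796 and 1279 CPM and at 2 mM 672, 982, 562 and 1361 CPM. It was higher in C5, C7 and C11 at both doses and lower in C9, in which CYR61 was higher at both. The groups overlapped at both doses.

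**Figure D3:**
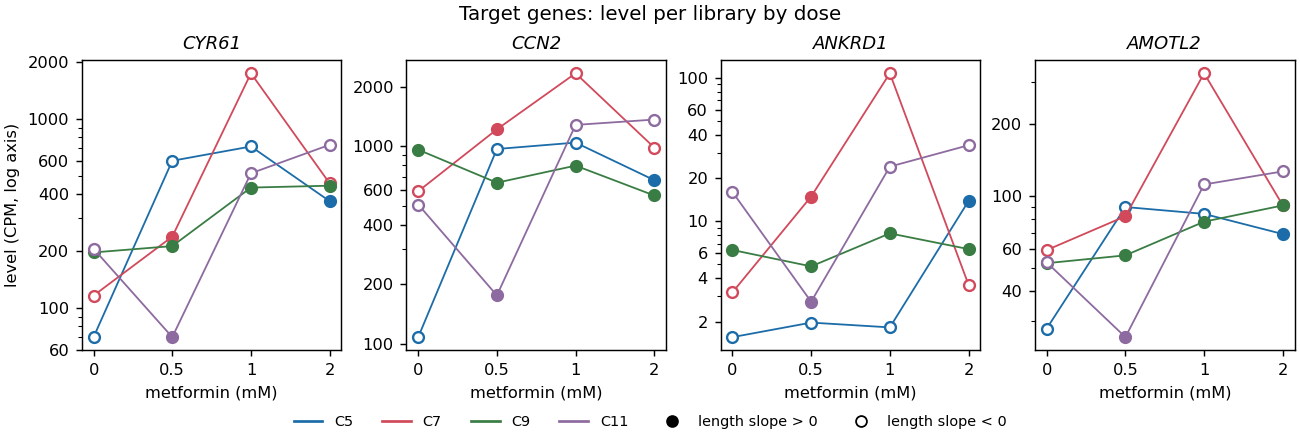
Level of CYR61, CCN2, ANKRD1 and AMOTL2 in each of the 16 libraries (CPM, log axis) by metformin dose (mM, evenly spaced), with 1 line per cell line and filled points for positive length slope. C7 at 1 mM holds the highest value of all 4 genes, and CYR61 and AMOTL2 at 1 mM and 2 mM lie above all 4 controls.

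Whether these differences exceeded the spread between lines was tested with edgeR's quasi-likelihood test over the whole table, in which a DEG had a p-value under 0.01 and a Benjamini-Hochberg adjusted p-value under 0.05. None of the 8 genes was a DEG at 0.5, 1 or 2 mM, and neither was any other gene (0% of 13318, 13330 and 13289 genes tested). At an unadjusted p-value under 0.05 there were 0, 2 and 2 of the 8 genes, against 1.1%, 4.77% and 10.6% of all genes. These were CYR61 and AMOTL2 at both doses. The log2 fold change of CYR61 was 2.56 ± 0.54 (SE) at 1 mM, with an adjusted p of 1.00, and 1.78 ± 0.38 at 2 mM, with an adjusted p of 0.285. For AMOTL2 it was 1.66 ± 0.50 at 1 mM (adjusted p of 1.00) and 0.99 ± 0.28 at 2 mM (adjusted p of 0.321).

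Other fits differed in these calls. DESeq2, the tool the study used, called CYR61 at 1 mM (2.53 ± 0.55, adjusted p = 0.00737) and at 2 mM (1.76 ± 0.42, adjusted p = 0.00416), where 0.159% and 1.92% of genes were DEGs. When the line was added as a block, AMOTL2 was called by DESeq2 as well, at 1 mM (1.42 ± 0.32, adjusted p = 0.00111) and 2 mM (0.99 ± 0.21, adjusted p = 0.000132), where 3.28% and 9.56% of genes were DEGs. CCN2 was called in that fit at 1 mM (1.59 ± 0.46, adjusted p = 0.0189) and not at 2 mM (1.01 ± 0.47, adjusted p = 0.142). In edgeR with the block and the length slope as terms, CYR61 (1.68 ± 0.12, adjusted p = 0.0305) and AMOTL2 (0.96 ± 0.16, adjusted p = 0.0434) were DEGs at 2 mM, as were 5.43% of genes. That fit takes the line, length slope and dose terms from only 8 libraries, which leaves little to estimate the spread. The length slope also comes from the same counts, and the fit was not repeated with a library left out. The direction for both genes at 1 mM and 2 mM was the same in every fit run.

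**Figure D4:**
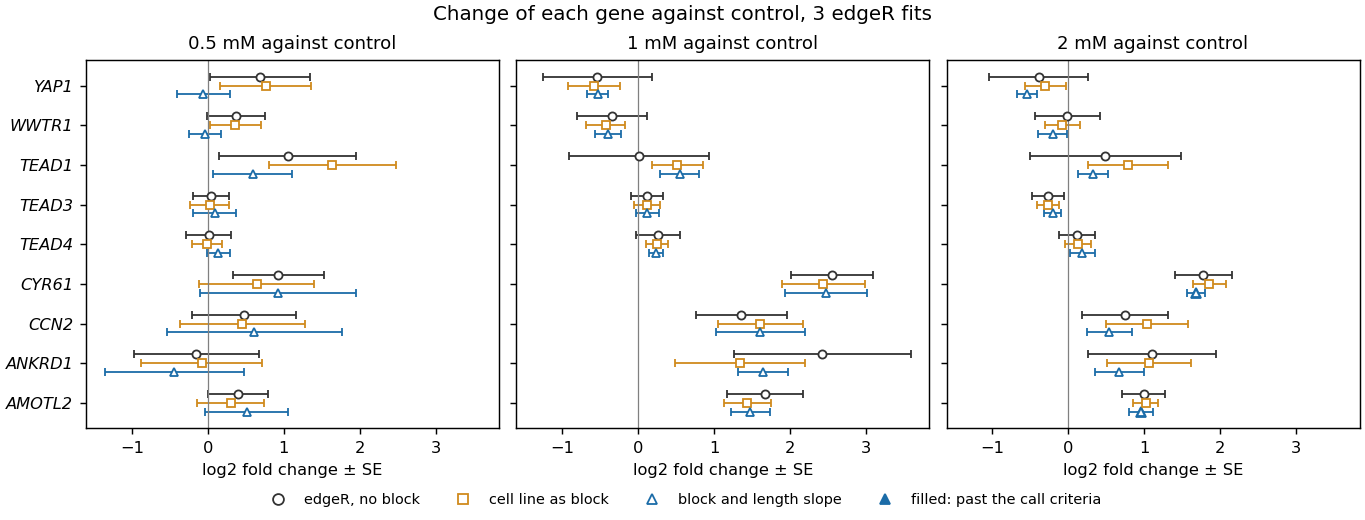
Log2 fold change against the control group with its SE for 9 genes at 0.5 mM, 1 mM and 2 mM in 3 edgeR fits: without a block, with the cell line as a block, and with block and length slope. Only CYR61 and AMOTL2 at 2 mM in the third fit have filled symbols, which mark DEGs, and CYR61 lies furthest to the right at 2 mM.

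The size of the changes at 1 mM rested in part on 1 library. C7 at 1 mM held the highest of 16 values for CYR61, CCN2, ANKRD1 and AMOTL2, as it did for 10.3% of 13591 genes. The comparison of 1 mM with control that the authors deposited uses 7 of the 8 libraries and lacks that one. Without line C7 the log2 fold change at 1 mM was 1.82 for CYR61 instead of 2.56, and 0.52 for ANKRD1 instead of 2.42. Without the 1 mM library of C7, that of AMOTL2 was 0.92 instead of 1.66 and that of CCN2 0.94 instead of 1.36. The summed level of 8 fibroblast markers was also lowest in C7 at 1 mM (8169.8 CPM), and was 19816 to 67779 CPM in the control group and 9429.6 to 31689 CPM at 2 mM. At 2 mM all 8 markers had a negative log2 fold change, with a median of -0.99 against 0.01 for all genes, and for 2 of them the p-value before adjustment was under 0.05. At 1 mM 7 of the 8 were negative, with a median of -0.52. None of the 8 was a DEG in edgeR without the block, and their part in the target levels was not tested.

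A straight-line change of log2 expression with dose, in units per mM, was tested over all 16 libraries. By edgeR 61 of 14108 genes (0.432%) were DEGs, and none of the 8 was among them. CYR61 had the steepest slope of the 8, at 0.97 ± 0.42 per mM (SE, adjusted p = 0.295), and was alone in having an unadjusted p-value under 0.05, as 14.8% of all genes had. ANKRD1 had 0.84 ± 0.71 and AMOTL2 0.57 ± 0.30, with adjusted p-values of 0.662 and 0.401. With the cell line as a block 4.96% of genes were DEGs and again none of the 8, CYR61 having an adjusted p of 0.205 and AMOTL2 of 0.222. DESeq2 called none of the 8 either, without the block (3.59% of genes were DEGs) or with it (8.52%).

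YAP1 was the only one of the 8 that became a DEG of the dose slope in any of these fits, and there it fell. With block and length slope as terms its slope was -0.38 ± 0.11 per mM (adjusted p = 0.0358), whereas without them it was -0.38 ± 0.36 (adjusted p = 0.715) and ran from -0.61 (without line C5) to -0.21 (without the C9 control) when 1 library or line was left out. In that fit 16.1% of all genes were DEGs and 7.61% were DEGs with a falling slope, so 1 call among 8 genes is close to the background. Among libraries of the same sign, YAP1 went from 115 and 113 to 79.9 and 61.5 CPM with dose in C9, from 37.1 to 18.0 and 10.7 CPM over the first 3 doses in C5, and from 28.8 to 20.2 and 15.9 CPM at 0, 1 and 2 mM in C11. C7 went from 18.5 to 24.6 and 18.4 CPM at the same doses. In 3 of 4 lines YAP1 thus went down with dose among libraries of 1 sign. That sign also separates high from low YAP1, so keeping 1 sign left out high values and the fall is not independent of the split. Left out were C5 at 2 mM (52.8 CPM) and C7 and C11 at 0.5 mM (84.8 and 105 CPM). CYR61 was above its control at 1 mM and 2 mM in all 4 lines, C7 included.

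None of the factors passed the test against the control group at any dose by edgeR without the block. At 2 mM against the control group the log2 fold changes were -0.39 ± 0.65 for YAP1, -0.02 ± 0.43 for WWTR1, 0.48 ± 0.99 for TEAD1, -0.26 ± 0.21 for TEAD3 and 0.11 ± 0.24 for TEAD4 (SE, edgeR, adjusted p between 0.727 and 0.995). The errors of TEAD1 and YAP1 were the widest of the 5 and those of TEAD3 and TEAD4 the narrowest. At 0.5 mM the changes were 0.69 ± 0.66 for YAP1, 0.37 ± 0.38 for WWTR1 and 1.05 ± 0.90 for TEAD1, with 2 more libraries of positive length slope at that dose than in the control group. With block and length slope as terms those of YAP1 and WWTR1 were -0.06 ± 0.34 and -0.04 ± 0.21, and that of TEAD1 was 0.59 ± 0.52. Without the C9 control library the changes at 0.5 mM were 1.503 for YAP1, 0.67 for WWTR1 and 2.76 for TEAD1, and they were lowest without line C11 for YAP1 (0.36) and TEAD1 (0.52) and without line C7 for WWTR1 (0.12). Whether the dose slope differed between lines was tested with interaction terms, and no gene (0%) passed in edgeR (239 of 14108 had an unadjusted p-value under 0.05), while DESeq2 called 9 genes (0.0448%) and none of the 8.

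**Figure D5:**
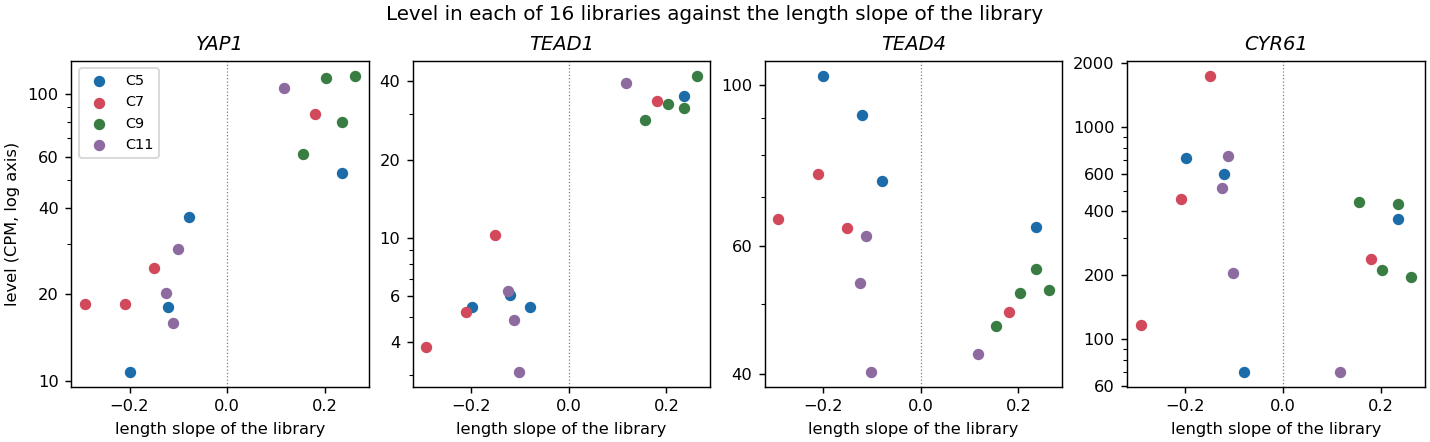
Level of YAP1, TEAD1, TEAD4 and CYR61 (CPM, log axis) in each of the 16 libraries against the length slope of the library, coloured by cell line, with a dotted line at a slope of 0. YAP1 and TEAD1 are higher in all 7 libraries to the right of the line, and TEAD4 and CYR61 overlap across it.

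How the genes varied together was described by Pearson's r of log2 CPM after removal of each line's mean, over 16 libraries that share lines, depth and the split by length slope. YAP1 and WWTR1 had r = 0.96, and YAP1 and TEAD1 r = 0.84. CYR61 and AMOTL2 had r = 0.97, CYR61 and CCN2 0.89, and CYR61 and ANKRD1 0.67. Between YAP1, WWTR1 or TEAD1 and these targets the values were low or negative, at -0.59 for YAP1 and CYR61, -0.05 for YAP1 and ANKRD1, and -0.19 for TEAD1 and CYR61. Single libraries went against the negative values, since C5 at 2 mM held the highest level of its line for both YAP1 (52.8 CPM) and ANKRD1 (13.8 CPM). Without C7 at 1 mM the value for YAP1 and CYR61 was -0.63 and that for CYR61 and ANKRD1 0.55. TEAD4 had r = -0.80 with YAP1 and -0.89 with WWTR1, against 0.49 with CYR61, 0.46 with CCN2, 0.42 with AMOTL2 and -0.13 with ANKRD1. TEAD3 had r = -0.44 with YAP1 and -0.43 with WWTR1, against 0.38, 0.45, 0.39 and 0.13 with the same 4 targets.

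Among 9755 genes with a symbol and a mean of at least 1 CPM, those most like CYR61 were AMOTL2 (r = 0.97), SOCS3 (0.97), an inhibitor of cytokine signalling, and HOPX (0.96), a homeodomain-only protein. For CCN2 they were SOCS3 (0.93), ACTN1 (0.92), the actin crosslinker alpha-actinin, and RBM38 (0.92), an RNA-binding protein. For ANKRD1 they were FBRSL1 (0.95), DUSP10 (0.95), a phosphatase of MAP kinases, and BDNF (0.94), a neurotrophin. DUSP10 was at 839 CPM and BDNF at 48.0 CPM in C7 at 1 mM, against at most 268 and 12.3 CPM in the other 15 libraries. Without that library the values of these 3 genes were 0.93, 0.92 and 0.94.

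Of 12 names in a list of the Hippo kinase core, 10 were tested, and none was a DEG of the dose slope by edgeR. Their median slope was 0.03 per mM, against 0.00 for all genes. Apart from 6 Hippo genes named whatever their values, genes of this and the following lists were mostly named for the smallest p-values of the dose slope. For a gene so picked, a change in 4 of 4 lines or a lack of overlap is not independent of that choice. SAV1, the scaffold of the kinases, was higher than its control in all 4 lines at 1 mM and 2 mM, as were 15.1% and 17.1% of 13591 genes. Its levels were 149 to 230.0 CPM in the control group and 199 to 261 CPM at 2 mM, with a slope of 0.24 ± 0.09 (adjusted p = 0.175). The kinase LATS2 was higher in 4 of 4 lines at 2 mM, at 10.1 to 57.8 CPM against 6.43 to 36.1 CPM, as were 17.1% of 13591 genes. LATS1, STK3, STK4 and TAOK3 had slopes of 0.12, -0.02, 0.10 and -0.08 per mM, each smaller than its SE. With block and length slope SAV1 (adjusted p = 0.00499) and LATS2 (adjusted p = 0.0385) were DEGs of the dose slope, as were 16.1% of all genes. LATS1, STK3 and STK4 shared the split of YAP1: in the 7 libraries of positive length slope STK3 was 32.2 to 50.0 CPM and in the others 8.81 to 24.0 CPM. All 7 libraries lay above all the others for 12.5% of 13591 genes, so this is not particular to the kinases.

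Among 15 tested upstream scaffolds and junction proteins none was a DEG of the dose slope by edgeR without the block and WWC1 was one with it, in the fit where 4.96% of all genes were DEGs. The count of 1 in 15 is thus near the background. WWC1 (KIBRA, an activator of LATS kinases) was higher in all 4 lines at each dose. So were 5.29%, 15.1% and 17.1% of 13591 genes at 0.5, 1 and 2 mM, but WWC1 was named for its small p-value of the dose slope. WWC1 went from a control range of 20.3 to 68.9 CPM to 80.4 to 129 CPM at 2 mM. Its slope was 0.65 ± 0.19 per mM (adjusted p = 0.126) without the block and 0.69 ± 0.11 (adjusted p = 0.00906) with it. NF2 (merlin), AMOTL1 and SLMAP had slopes of -0.07, -0.16 and 0.19 per mM, and none was a DEG in either fit. Of the TEAD cofactors of the vestigial-like family, VGLL3 was higher in 4 of 4 lines at 1 mM and 2 mM, as were 15.1% and 17.1% of genes. VGLL3 was at 13.7 to 38.3 CPM in the control group, 38.0 to 79.2 CPM at 1 mM and 39.9 to 57.7 CPM at 2 mM. Its slope was 0.48 ± 0.17 (adjusted p = 0.175), that of VGLL4, which competes with YAP1 for TEAD, was 0.16 ± 0.20, and VGLL1 reached at most 0.740 CPM.

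A list of 25 further genes known as YAP1 and TEAD targets in mammalian cells gave 22 tested genes and no DEG of the dose slope by edgeR without the block. The log2 fold change was positive for 16 of the 22 at 0.5 mM (median 0.38), 17 at 1 mM (median 0.33) and 19 at 2 mM (median 0.47). Over all genes 50.2%, 49.7% and 50.6% were positive, with medians of 0.002, -0.003 and 0.007. An unadjusted p-value under 0.05 was found for 0, 2 and 3 of the 22, against 1.1%, 4.77% and 10.6% of all genes. BIRC5 (survivin, an inhibitor of apoptosis that is also a gene of mitosis) was higher in all 4 lines at each dose. So were 5.29%, 15.1% and 17.1% of 13591 genes at 0.5, 1 and 2 mM, but BIRC5, like AXL, was named for its small p-value of the dose slope. The slope of BIRC5, 0.58 ± 0.14, was past the thresholds with the block (adjusted p = 0.0292) and not without it (0.53 ± 0.23, adjusted p = 0.279). BIRC5 was the only call among the 22 with the block, where 4.96% of all genes were DEGs. The receptor kinase AXL was between 229 and 353 CPM in the control group and between 363 and 479 CPM at 2 mM. All 4 libraries at 2 mM thus lay above all 4 controls, as for 3.48% of 13591 genes. The slope of AXL was 0.21 ± 0.10 (adjusted p = 0.309), and it was negative when the 2 mM libraries were left out. IGFBP3, a binding protein of insulin-like growth factors, had a slope of 0.31 ± 0.15, and AREG, a ligand of the epidermal growth factor receptor, lay between 0.201 and 2.43 CPM. DESeq2 called none of the 22 at 2 mM. With block and length slope, where 5.43% of genes were DEGs, 3 of them (EDN1, BIRC5 and GADD45A) were higher and NUAK1 was lower, names given after their values were seen.

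AP-1 factors bind enhancers together with TEAD. Of their genes, JUN, FOS, FOSB and ATF3 were highest in the same library as the targets, as were 10.3% of 13591 genes. Levels of the other AP-1 genes tested are not given here. JUN was at 3606 CPM in C7 at 1 mM and between 298 and 839 CPM elsewhere. FOS was at 365 CPM there and at most 82.6 CPM elsewhere. Its control levels (17.9 to 26.5 CPM) lay below all those at 2 mM (34.6 to 82.6 CPM), as for 3.48% of 13591 genes. None of the 6 AP-1 genes tested was a DEG in edgeR without the block. DESeq2 called FOS at 2 mM (1.38 ± 0.34, adjusted p = 0.00592), where 1.92% of genes were DEGs. In edgeR with block and length slope, 3 of the 6 were DEGs with a rise at 1 mM and 2 at 2 mM. In those fits 1.76% and 5.43% of all genes were DEGs, and the limits given above for CYR61 and AMOTL2 hold here too. FOSB and ATF3 were at 48.0 and 385 CPM in C7 at 1 mM and at most 13.5 and 302 CPM elsewhere. Of the other CCN genes tested, WISP1 was lower than its control in all 4 lines at 2 mM, as were 18.5% of 13591 genes. WISP1 was at 17.3 to 150.3 CPM at 2 mM against 72.2 to 447 CPM, with a slope of -0.48 ± 0.35, and CCN3 was at most 1.54 CPM.

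Genes of the actin and serum response factor programme, which responds to the same actin tension, gave no DEG by edgeR without the block. Of 10 tested, 1 had a positive log2 fold change at 0.5 mM (median -0.31), 3 at 1 mM (median -0.08) and 4 at 2 mM (median -0.08), against 50.2% of all genes at 0.5 mM, and 4 had a positive dose slope. FLNA, the actin crosslinker filamin A, was at 232 to 299 CPM in the control group and 146 to 175 CPM at 2 mM. In all 4 libraries at 2 mM FLNA thus lay below all 4 controls, as did 3.71% of 13591 genes. Its slope of -0.38 ± 0.09 per mM was past the thresholds with the block (adjusted p = 0.0318) and the same gene had an adjusted p of 0.113 without it. It was the only DEG of the 10 with the block, against 4.96% of all genes. TAGLN and CNN1, both of smooth muscle, peaked in C7 at 1 mM at 1586 and 43.3 CPM, and MRTFA, the coactivator of serum response factor, had a slope of -0.08 ± 0.08.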

How the data were processed

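RNA of 16 cultures (4 lines by 4 doses) was sequenced. The study's methods and the submitters' processing notes name HISAT2 2.1.0, GRCg6a and featureCounts, and the authors deposited raw counts per gene and library, without normalization. The exonic length of each gene is an other column that the authors deposited in the same table. The signal columns of the deposited comparison tables hold the authors' counts divided by size factors and were read only to list the libraries behind each comparison. Their fold changes and p-values were not used.

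The statistics used edgeR 4.0.16 in R 4.3.3 (TMM, filterByExpr, two-sided quasi-likelihood test, Benjamini-Hochberg adjustment over all genes tested), limma 3.58.1 and DESeq2 1.42.0. The edgeR fit without the block or the length slope was tested on simulated data that held no line effects and no split by length slope. How the fit performs with these was not tested. No test on simulated data is given for DESeq2 or for fits with the block, the length slope or interaction terms. Each dose was compared with control on 8 libraries, without the cell line as a term, whereas the authors' deposited 1 mM comparison used 7. The slope per mM used 16 libraries. Alternatives were DESeq2, RLE, all genes without the count filter, genes averaging at least 1 CPM, the cell line as block, the length slope (from genes with a mean of at least 100 counts) and libraries or lines left out. Log2 CPM used a prior count of 1. Intervals of fits without the block cover the spread between 4 lines, each from 1 hen. With the block they cover the spread left after the line terms. The SE of an edgeR fit is the absolute log2 change or slope divided by the square root of its F statistic. The lines pair the samples. Libraries of the same line and the same sign of length slope had a median r of 0.75 (15 pairs). Those of different lines and the same sign had 0.20 (31 pairs). Libraries of the same line and different sign had -0.03 (9 pairs), and those of different lines and sign -0.37 (41 pairs). TPM was computed from the counts and lengths. None of the genes given with coordinates shares exonic bases with another gene. The others were not examined for this. Genes named from the lists were the 4 of each with the smallest p-value of the dose slope, and 6 Hippo genes whatever their values. A gene that this rule names is not reported here. The genes, lists and tests were chosen with earlier results of these data known.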

Additional observations from a re-analysis of the deposited data

Results flagged for a closer look

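In 2 of 36 groups of 4 libraries (9 genes at 4 doses) 1 library stood far from the other 3 in CPM by Dixon's criterion. Chance alone meets it in about 1 in 20 groups of normally distributed values. The criterion is given here for CPM only and not for log2 CPM. TEAD1 in the control group was at 42.0 CPM in C9 and at 3.07, 3.83 and 5.45 CPM in the other lines. AMOTL2 at 1 mM was at 326 CPM in C7 and at 78.2, 84.3 and 112 CPM in the other lines.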

How the results depend on the processing

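The 8 genes gave no call in edgeR without the block, nor in that same fit when any 1 library or line was left out. Calls among them arose at 1 mM with DESeq2 (1) and DESeq2 with the replicate block (2), at 2 mM with DESeq2 (1), DESeq2 with the block (2) and the block with length slope (2), and for the dose slope with the block and length slope (1). In edgeR the replicate block alone changed no call among them, while in DESeq2 it added AMOTL2 at 1 mM and 2 mM. The fits that gave calls were not repeated with a library or line left out, so how far those calls rest on single libraries was not tested. The depth leaves every gene of the 8 with at least 56 counts in each library. Which source of spread limits these results was not tested.

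Over the whole table, DEGs at 0.5 mM numbered 0, and 1 in DESeq2 with the block. At 1 mM the 0 DEGs became 30 in DESeq2, 633 in DESeq2 with the block, 234 with the block and length slope, and 25 with these terms over all 16 libraries. At 2 mM the 0 became 365 in DESeq2, 1841 in DESeq2 with the block, 722 with the block and length slope, 3 over all 16 libraries, 293 over all 16 with the block and 1459 over all 16 with block and length slope. The 61 of the dose slope became 716 in DESeq2, 40 without a count filter, 700 with the block, 1713 in DESeq2 with the block, 901 with the length slope, 2277 with both terms, 0 without the 2 mM libraries (fewer samples), and, with the block, 958 without C7 at 1 mM and 1193 without line C7. With 1 library or line left out it ran from 0 (without line C9) to 205 (without C7 at 1 mM). The fits of all 16 with both terms and the block fits without C7 or its 1 mM library were chosen after seeing the data, and the causes were not tested.

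Some values changed sign, none of them called, and not all of them were near 0. At 0.5 mM YAP1 was -0.059 with block and length slope, -0.030 with length slope and -0.023 with both over all 16, and WWTR1 -0.037, -0.053 and -0.10. TEAD3 was -0.0062 in DESeq2 with the block, and TEAD4 -0.017 in DESeq2, -0.019 in RLE, -0.017 with the block, -0.045 in DESeq2 with the block and -0.0031 over all 16 with it. At 1 mM TEAD1 was -0.020 in RLE, -0.012 without a count filter and -0.0055 at a mean of at least 1 CPM. Without the 2 mM libraries the dose slopes were -0.0032 for TEAD1, 0.11 for TEAD3, -0.44 for STK4 and -0.12 for AXL. That of STK3 was 0.027 with the block, 0.011 in DESeq2 with it, 0.019 with both terms, 0.024 with the length slope, and 0.021 and 0.078 with the block without C7 at 1 mM and without line C7.

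With 1 library or line left out, the log2 change ran at 0.5 mM from -0.13 to 0.28 for TEAD3, -0.29 to 0.16 for TEAD4 and -1.33 to 0.99 for ANKRD1. At 1 mM it ran from -1.40 to 0.28 for YAP1, -0.85 to 1.71 for TEAD1 and -0.00059 to 0.39 for TEAD4. At 2 mM it ran from -0.75 to 0.42 for YAP1, -0.28 to 0.28 for WWTR1, -0.30 to 2.19 for TEAD1 and -0.051 to 0.23 for TEAD4. The dose slope ran from -0.42 to 0.31 for TEAD1, -0.20 to 0.12 for STK3, -0.056 to 0.20 for STK4, -0.048 to 0.28 for VGLL4 and -0.14 to 0.94 for CCN3.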
